A study of Mus musculus with 23 samples.

Results

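The hippocampus of *Bhlhe40* knockout (KO) mice was compared with the hippocampus of wild-type (WT) mice by microarray, gene by gene. The arrays were chosen by the tissue and genotype of the sample labels, which gave 4 KO and 4 WT arrays of hippocampus among the 23 arrays of the series. The other arrays held cortex (8) and cerebellum (7) of the same mice. All mice were untreated males aged 3 to 5 months on the C57BL/6 background, were fasted overnight, and gave tissue around midday. The KO mice lacked *Bhlhe40* in the whole animal and came from a line backcrossed to C57Bl/6, so the loss of the gene and any donor sequence that remained beside it on chromosome 6 cannot be told apart. Each array held the total RNA of 1 mouse, labelled from an oligo-dT primer.

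Bhlhe40, also called Dec1, is a basic helix-loop-helix transcription factor that represses genes by binding the E-box CACGTG in their promoters. GC boxes, which Sp1 factors bind, were searched as well. It is part of a feedback loop of the circadian clock, where it opposes the activation of *Per* genes by the Clock and Bmal1 proteins, and it is abundant in neurons of the hippocampus. The hippocampus is a folded sheet of pyramidal neurons (CA1 to CA3) and dentate granule cells that borders the lateral ventricle, where the choroid plexus secretes cerebrospinal fluid. The arrays address which transcripts differ in this tissue when Bhlhe40 is absent.

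Sequence around the start site was taken from the RefSeq promoter table of the build GRCm38.p6, with 250 bases before each start and 50 after it. The 15 highest and 15 lowest genes described below were taken from those whose arrays did not overlap, outside the qRT-PCR genes of the study. Of these 30 genes, 29 had a promoter in the table and 2 of these held an E-box. Among all tested genes in the table the share was 11.6%. These 2 are shown because the E-box is the site that Bhlhe40 is known to bind. The promoter of the clock gene *Per1* is added, chosen after its values were seen and because it holds an E-box. *Bhlhe40* and the clock output gene *Dbp* were searched with it, and no E-box was found for them in this window. The promoter of 6430548M08Rik lies at chr8:120113902-120114201 on the plus strand and holds 2 E-boxes, that of Megf9 lies at chr4:70534879-70535178 on the minus strand and holds 1, and that of Per1 lies at chr11:69098699-69098998 on the plus strand and holds 1. 6430548M08Rik and Per1 each have 2 promoters in the table. The 1 printed was picked by its E-boxes and holds at least as many as the other. A gene was counted as holding a motif if any of its promoters did. Capitals mark the E-box in the 5′ to 3′ sequences that follow.
6430548M08Rik: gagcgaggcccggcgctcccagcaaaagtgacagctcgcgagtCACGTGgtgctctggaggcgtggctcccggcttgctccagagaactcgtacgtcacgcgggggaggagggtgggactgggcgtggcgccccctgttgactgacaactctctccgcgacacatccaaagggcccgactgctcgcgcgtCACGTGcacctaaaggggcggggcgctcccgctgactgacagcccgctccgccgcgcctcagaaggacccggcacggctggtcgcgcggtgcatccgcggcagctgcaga
Megf9: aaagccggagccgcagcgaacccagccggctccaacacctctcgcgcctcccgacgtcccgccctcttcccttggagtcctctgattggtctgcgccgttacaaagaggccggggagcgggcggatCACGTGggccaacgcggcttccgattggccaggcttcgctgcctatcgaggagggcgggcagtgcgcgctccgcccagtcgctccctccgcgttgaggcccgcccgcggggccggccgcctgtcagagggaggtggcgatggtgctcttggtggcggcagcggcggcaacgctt
Per1: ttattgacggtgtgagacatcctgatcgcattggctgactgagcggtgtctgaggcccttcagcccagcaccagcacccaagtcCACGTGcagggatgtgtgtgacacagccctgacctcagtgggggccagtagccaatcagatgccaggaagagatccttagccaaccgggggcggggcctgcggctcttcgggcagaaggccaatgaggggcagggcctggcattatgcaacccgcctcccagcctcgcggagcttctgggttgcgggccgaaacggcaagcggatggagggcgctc

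Promoters with an E-box were about as frequent among the genes that changed as among those that did not. CACGTG, which reads the same on both strands, was found for 64 of 587 genes higher in KO hippocampus (10.9%), for 44 of 365 genes lower in KO (12.1%) and for 823 of 7055 genes that passed in neither direction (11.7%), against 8.09% of the 27025 genes in the table. The longer form TCACGTGA, which contains the first motif, stood in 2.56%, 1.92% and 2.13% of these 3 sets and in 1.12% of the table. The GC box GGGCGG on either strand stood in 63.7% of the higher, 78.4% of the lower and 68.0% of the other genes, and in 38.2% of the table. A match is a stretch of letters and was not tested as a binding site.

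Signal and detection overlapped between the genotypes. The median bead signal was 186.8 to 258.3 in KO and 164.4 to 207.5 in WT arrays, and 52.6% to 54.5% of the 25697 probes were detected in KO and 53.9% to 55.5% in WT arrays, at a detection p under 0.05. Levels are given as normalised log2 signal, Z normalised within each array and put back on the log2 scale. Genes seen above background in 3 or more of the 8 arrays were tested, which left 9834 of 16593 genes, 8685 of them detected in every array. The 238 genes that only just entered, with 3 arrays, had a median level of 7.51, and the 329 that just missed, with 2 arrays, had 7.48. Of the hippocampal markers, *C1ql2* of granule cells had a mean of 12.22 in KO and 12.12 in WT hippocampus and *Spink8* of CA1 had 11.16 in KO and 10.76 in WT, while *Iyd* of CA3 (7.88 in KO and 7.98 in WT) and *Neurod6* of pyramidal neurons (7.54 in KO, with detection in 2 of 4 arrays, and 7.60 in WT) were dim. Of the cerebellar markers, *Pcp2* and *Gabra6* were detected in 0 hippocampal arrays, and *Cbln1* was detected in all 8, at 9.54 in KO and 9.13 in WT, below its cerebellar level of 14.36 in KO and 14.76 in WT.

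*Bhlhe40* itself was measured first. Its level was 8.21, 7.94, 8.11 and 8.47 in the KO arrays, against 11.90, 11.94, 11.85 and 11.84 in the WT arrays. The transcript was thus far lower in each library labelled KO, although its probe was still detected in 4 of 4 of them. The log2 difference was -3.70 (standard error 0.10, adjusted p = 5.53e-14 from limma), or 0.0769 of the WT level.

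Across the hippocampus, more genes rose than fell, and nearly all changes were small. At an adjusted p under 0.05 from limma, 707 genes were higher in KO (7.19% of the genes tested) and 451 were lower (4.59%), so that 11.8% changed and 61.1% of these were higher. The median size of a change was 0.35 on the log2 scale, next to a median standard error of 0.09 over all genes, and the median difference of all genes was 0.01. Every KO array lay above every WT array for 910 genes (9.25%) and below for 733 (7.45%). Of the higher genes 47 moved by over 1.5-fold (0.478% of the genes tested) and 13 by over 2-fold (0.132%), and of the lower genes 12 (0.122%) and 4 (0.0407%). Of the 707 higher genes, 8 were detected in 0 WT arrays and 19 in 1, and of the 451 lower genes, 5 were detected in 0 KO arrays and 7 in 1, so that these entered the test only through the genotype in which they were high. Labels do not say whether the mice of a genotype were littermates, and the p-values measure the spread between these mice.

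These counts leaned on single arrays. Without WT replicate 4, 206 genes were higher and 137 lower, without KO replicate 3 the counts were 265 and 141, and without WT replicate 1 the lower genes were 274. An unmoderated test, in which each gene has its own variance from 8 arrays, left 6 higher and 9 lower genes.

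**Figure D1:**
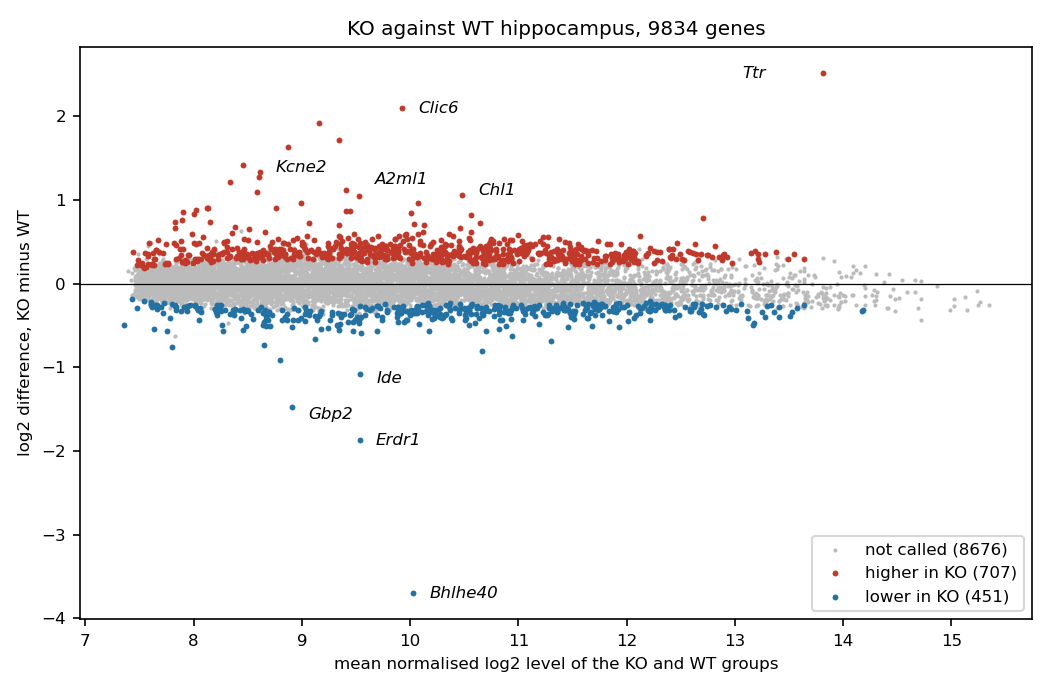
Log2 difference of each gene, KO minus WT hippocampus (vertical axis), against the mean normalised log2 level of both groups (horizontal axis), for the 9834 genes tested; red points are the 707 genes higher in KO, blue points the 451 lower in KO, and grey points the genes that passed in neither direction. Most changes lie within a narrow band around 0 at every level, and *Bhlhe40*, *Erdr1*, *Gbp2* and *Ide* stand apart below it and *Ttr* and *Clic6* above it.

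After *Bhlhe40*, the genes over 2-fold lower were *Erdr1*, *Gbp2* and *Ide*, the insulin-degrading enzyme (-1.08). *Erdr1*, a secreted factor named for erythroid differentiation, had levels of 9.46, 7.84, 8.57 and 8.52 in KO arrays, against 10.71, 10.29, 10.62 and 10.25 in WT arrays. The KO arrays were spread over more than 1 log2 unit and yet none reached the lowest WT array. The difference was -1.87 (standard error 0.22, adjusted p = 0.000300 from limma). *Gbp2*, an interferon-induced GTPase that attacks intracellular microbes, had 8.28, 8.02, 8.11 and 8.29 in KO arrays, against 9.92, 8.82, 10.54 and 9.30 in WT arrays. Here the KO arrays were nearly level, and the WT arrays were scattered above them. Its difference was -1.47, with a standard error of 0.24 (limma, adjusted p = 0.00408).

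Among the 15 lowest genes described here were also *Lcn2*, *Ccl12* and *Icam1*. *Lcn2*, a lipocalin that withholds iron from bacteria, was near background in KO arrays, with 7.28, 7.66, 7.31 and 7.42 and detection in 1 of 4, against 8.42, 7.70, 8.63 and 7.95 in WT arrays. The highest KO array and the lowest WT array were almost level, and the difference was -0.76 (standard error 0.15, adjusted p = 0.00880 from limma). *Ccl12*, a chemokine that attracts monocytes, had 7.50, 7.30, 7.41 and 7.69 in KO arrays, with detection in 1 of 4, against 8.31, 7.95, 8.03 and 7.90 in WT arrays (difference -0.57, adjusted p = 0.00445 from limma), and its other detected probe fell too, by 0.40. *Icam1*, the adhesion molecule by which leukocytes hold on to endothelium, differed by -0.57 (standard error 0.11, adjusted p = 0.00868 from limma), with no overlap of the arrays. As a list, interferon-induced and MHC class I genes moved both ways. Of 22 tested genes 3 were higher (13.6%, against 7.19% of all genes) and 2 lower (9.09%, against 4.59%), with a median of -0.01. *Gbp3* fell with *Gbp2* (-0.41, by both of its probes), and *Ifi27*, *B2m*, which encodes the light chain of MHC class I, and *Tap2*, the peptide transporter that loads it, rose by 0.47, 0.36 and 0.31.

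The other genes among the 15 lowest had varied roles. *Zeb2*, a zinc finger repressor that acts in neuron and glia differentiation, had 10.70, 11.32, 10.94 and 10.87 in KO arrays, against 11.73, 11.55, 11.59 and 11.68 in WT arrays. It was thus well expressed in both genotypes and lower in each KO array (-0.68, standard error 0.10, adjusted p = 0.00277 from limma). *Rapgef5*, an exchange factor that activates Rap GTPases, had 10.64, 10.76, 10.51 and 10.64 in KO arrays, against 11.56, 11.17, 11.13 and 11.19 in WT arrays (difference -0.63, adjusted p = 0.00253 from limma). *Megf9*, a membrane protein with EGF-like domains whose promoter is shown above, had 8.81, 8.92, 8.43 and 9.03 in KO arrays, against 9.91, 9.46, 9.18 and 9.27 in WT arrays (difference -0.66, adjusted p = 0.0130 from limma). Each was separated without overlap, by a narrow margin for *Megf9*.

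6430548M08Rik, the gene with 2 E-boxes in the promoter shown, had 10.42, 10.60, 10.28 and 10.40 in KO arrays, against 11.29, 10.89, 10.82 and 10.95 in WT arrays (difference -0.56, adjusted p = 0.00582 from limma). Both of the genes with an E-box among the 15 highest and 15 lowest genes described here were thus lower in mice without Bhlhe40. The rest of the 15 lowest genes were *Tmem267* (-0.73), a predicted membrane protein, *Creg2* (-0.59), a secreted glycoprotein, *Dcp1b* (-0.56), which helps to decap mRNA, *Gda* (-0.55), the enzyme guanine deaminase, *Fgfbp3* (-0.55), which binds fibroblast growth factors, and *Thsd4* (-0.54), a protein of the extracellular matrix. *Thsd4* fell by both of its probes, whereas a second probe of *Dcp1b* had a difference of 0.04, so its decrease rests on 1 of 2 probes.

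**Figure D2:**
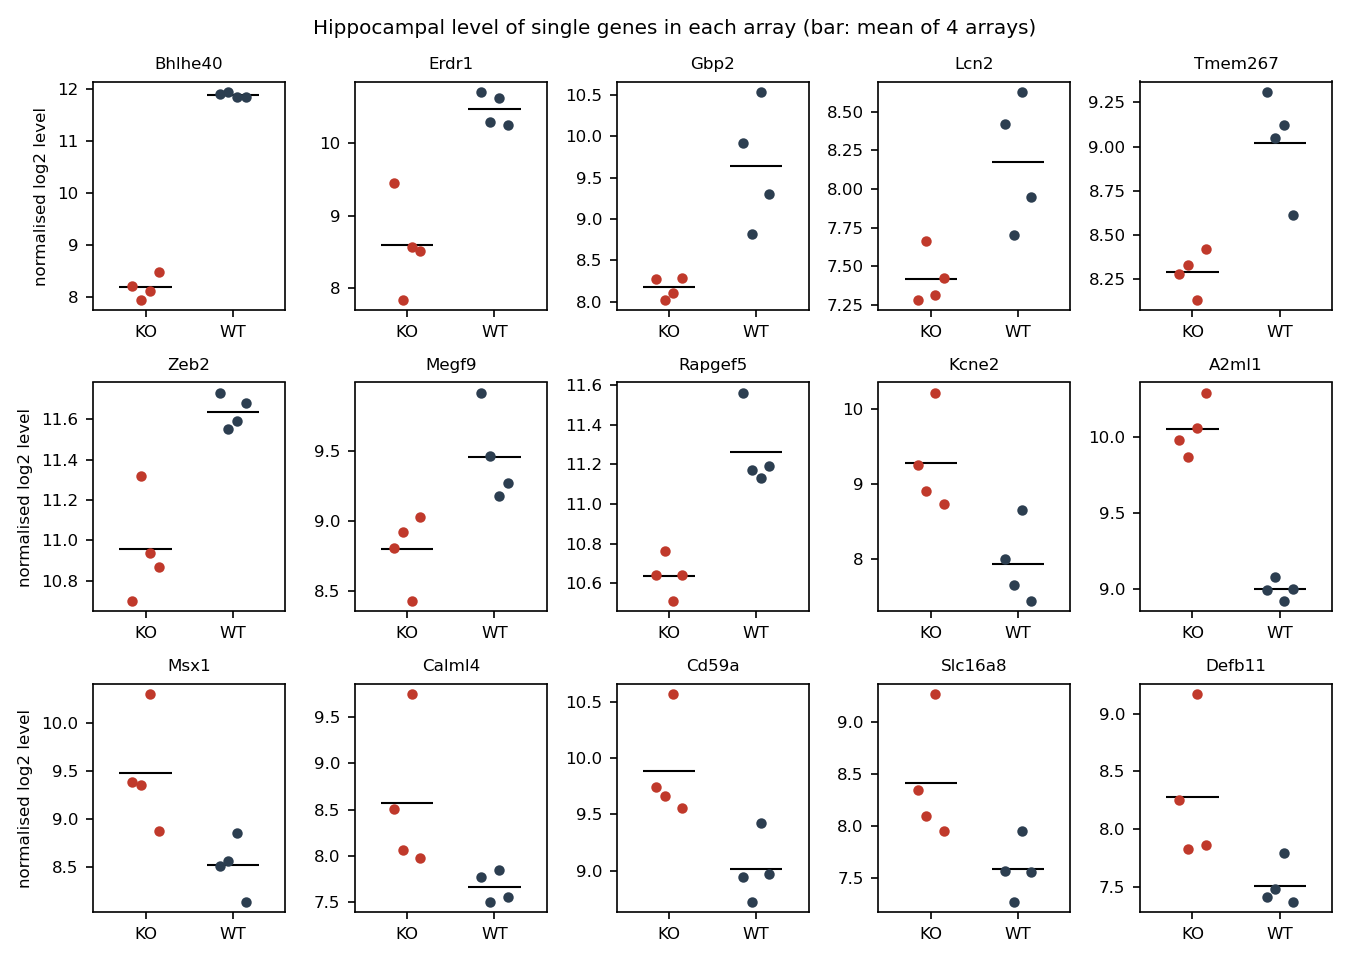
Normalised log2 level (vertical axes, each with its own scale) of *Bhlhe40*, the 7 lowest and the 7 highest non-overlapping genes in each hippocampal array, with KO arrays on the left in red, WT arrays on the right in dark blue, and a bar at the mean of the 4 arrays. In *Gbp2* the KO arrays lie together near 8.2 and the WT arrays are scattered, and in *Kcne2*, *Msx1*, *Calml4*, *Cd59a*, *Slc16a8* and *Defb11* 1 KO array, KO replicate 3, stands above the other arrays.

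Of the 13 genes over 2-fold higher, 9 belonged to a list of choroid plexus markers, and the other 4 were *A2ml1*, *Chl1*, *Igfbp2* and *Wfdc2*. Of the 47 over 1.5-fold higher, 16 were choroid plexus markers, 1 was an ependymal marker, and 30 were in neither list. The lists held 20 and 10 tested genes, so absence from them does not place a gene outside these tissues. *Kcne2*, an accessory subunit of potassium channels that is known from choroid plexus epithelium, had 9.26, 8.91, 10.22 and 8.73 in KO arrays, against 8.0, 7.66, 8.65 and 7.44 in WT arrays. Its lowest KO array stood just above its highest WT array (difference 1.34, standard error 0.26, adjusted p = 0.00868 from limma). *Msx1*, a homeobox factor of the dorsal midline, had 9.38, 9.35, 10.30 and 8.87 in KO arrays, against 8.51, 8.56, 8.85 and 8.13 in WT arrays (difference 0.96, adjusted p = 0.0117 from limma). *Calml4*, a calmodulin-like protein, had 8.51, 8.06, 9.75 and 7.98 in KO arrays, against 7.77, 7.50, 7.85 and 7.55 in WT arrays (difference 0.91, standard error 0.26). In all 3 genes KO replicate 3 was the highest array. The same array was the highest KO array for 13 of the 15 highest genes without overlap of the arrays, the qRT-PCR genes of the study left out.

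*A2ml1*, which encodes a protease inhibitor of the alpha-2-macroglobulin family, did not follow that pattern. Its levels were 9.98, 9.87, 10.06 and 10.29 in KO arrays, against 8.99, 9.08, 8.92 and 9.0 in WT arrays. The arrays of each genotype lay close together and its difference was 1.05, with an adjusted p of 9.26e-06 in limma and a standard error of 0.10, and 0.99 with its second probe. *A2ml1* lies on chromosome 6, as *Bhlhe40* and *Chl1* do, and so does *Cxcl12*, a chemokine that guides migrating granule cell precursors. *Cxcl12* rose by 0.73 with its brightest probe (limma, standard error 0.09, adjusted p = 0.000397). Its other probes had -0.35, which passed in the opposite direction (adjusted p = 0.0362 from limma), and -0.15. Chromosome 6 as a whole had 40 higher and 26 lower of 509 genes (13%), within the range of 8.11% to 14.8% over the other chromosomes with more than 4 genes tested. Of the genes that changed by over 2-fold it held 4, among them the knocked-out *Bhlhe40* itself, *A2ml1* and *Chl1*. This was the most of any chromosome, against 0 to 2 on each of the others. A share over a whole chromosome does not single out the region beside *Bhlhe40*, whose part was not tested.

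The rest of the 15 highest genes had varied roles. *Cd59a* (0.87), which shields cells from complement, *Slc16a8* (0.83), a lactate transporter of epithelia, *Defb11* (0.76), a beta-defensin, *Gpx8* (0.73), a peroxidase of the endoplasmic reticulum, and *Trpv4* (0.67), a cation channel that responds to swelling, rose along with *Dynlrb2* (0.68), a dynein light chain of motile cilia. *Defb11* and *Trpv4* were detected in 1 of 4 WT arrays, so they entered the test through the KO arrays and their WT level is near background. *Gpx8* rose with each of its 3 probes. *H2bc9* (0.71) and *H2bc11* (0.67), both of the histone H2B cluster, rose too, but genes of this cluster are nearly identical in sequence and their probes may not tell them apart. *Tmem254a* (0.70), a membrane protein, had 10.22, 10.36, 10.66 and 10.66 in KO arrays, against 9.87, 9.77, 9.77 and 9.69 in WT arrays (adjusted p = 0.00191 from limma), and *Hemk1* (0.70), a methyltransferase of translation release factors, completed the group.

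Of 15 core clock genes tested, 1 was higher (6.67%, close to the 7.19% of all genes) and 0 were lower (4.59% of all genes), with a median log2 difference of 0.06. The gene that rose was *Per1*, a repressor of the clock, with 11.18, 11.05, 11.01 and 11.12 in KO arrays, against 10.82, 10.82, 10.55 and 10.74 in WT arrays. The groups did not overlap, and both probes had a difference of 0.36 (adjusted p = 0.0111 from limma for the brighter probe). *Arntl*, which encodes Bmal1, differed by -0.31 (adjusted p = 0.0609), *Npas2* by -0.24 and *Ciart* by 0.31, none of which passed. Among the 4 clock output factors of the bZIP family, *Dbp* rose by 0.27 (adjusted p = 0.0358 from limma), with 12.21, 12.24, 12.38 and 12.09 in KO arrays, against 12.01, 11.85, 11.94 and 12.06 in WT arrays. This call was lost in 6 of 8 fits, without KO replicate 1 or 3 and without each WT replicate in turn.

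Among 31 other helix-loop-helix factors tested, 2 were higher and 1 lower (median 0.05). These shares of 6.45% and 3.23% are near the 7.19% and 4.59% of all genes. The factors that rose were *Id1* (0.50, standard error 0.10, adjusted p = 0.00951 from limma) and *Id2* (0.27), dominant-negative proteins that lack a DNA-binding domain, and *Id3* had a difference of 0.33 that did not pass. *Arnt*, a partner of the hypoxia and dioxin receptors, fell by 0.23. A second probe of *Id2* had a difference of 0.18 (adjusted p = 0.293).

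Subunits of the respiratory chain were higher in KO hippocampus where they passed the test, and 0 were lower. Of 32 subunits of complex I, the NADH dehydrogenase, 20 rose and 0 fell (62.5%, against 7.19% of all genes), with a median log2 difference of 0.34 and 31 of 32 above 0. Their mean level was 11.72, 11.68, 12.01 and 11.83 in KO arrays, against 11.54, 11.47, 11.52 and 11.45 in WT arrays. The arrays of the 2 genotypes did not overlap, and KO replicate 3 was again the highest. *Ndufc1*, an accessory subunit, had 12.10, 11.97, 12.43 and 12.22 in KO arrays, against 11.82, 11.56, 11.74 and 11.72 in WT arrays (difference 0.47, adjusted p = 0.00868 from limma), and *Ndufb5* rose by 0.49. Of the 23 subunits of complexes II to IV 8 rose, among them *Cox7c* (0.45) and *Cox7a2* (0.51) of cytochrome oxidase, and of the 15 of ATP synthase 8 rose, among them *Atp5l* (0.39) and *Atp5g1* (0.38), with medians of 0.24 and 0.32 and 0 lower in either.

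The TCA cycle and fatty acid oxidation held few changes, next to 7.19% higher and 4.59% lower of all genes. Of 18 enzymes of the TCA cycle and pyruvate oxidation, 0 rose and 1 fell, *Pdha1* of pyruvate dehydrogenase (-0.30, adjusted p = 0.0310 from limma), with a median of -0.03. Of 16 genes of fatty acid oxidation 1 rose, *Eci1* (0.42). Genes of mitochondrial import and cristae changed more often and were mixed, with 5 of 25 higher (20%) and 2 lower (8%). Here the small subunits *Tomm6* (0.48) and *Tomm7* (0.43) of the outer membrane pore rose, and *Tomm70a* (-0.29), a receptor of the same pore, and *Hspa9* (-0.27), the matrix chaperone that pulls proteins in, fell. Without KO replicate 3, 12 genes of complex I, 1 of complexes II to IV and 0 of ATP synthase rose, and without WT replicate 4 these were 10, 2 and 1. Without WT replicate 1, 5 of complexes II to IV and 3 of ATP synthase rose, without WT replicate 2 these were 3 and 4, without KO replicate 1 the count for complexes II to IV was 5, and without KO replicate 4 that for ATP synthase was 5. In mitochondrial import 2 to 5 rose and 0 to 1 fell over the 8 fits without 1 array, with 2 and 0 without KO replicate 3 or WT replicate 4.

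Many proteins of the ribosome and the spliceosome rose, and 0 of those listed fell. Of 56 cytosolic ribosomal proteins tested 26 rose (46.4%, against 7.19% of all genes) and 0 fell (median 0.25), led by *Rps27l* (0.57) and *Rps25* (0.56), and of 70 mitochondrial ribosomal proteins 29 rose (41.4%) and 0 fell (median 0.25), led by *Mrps21* (0.59) and *Mrpl54* (0.54). Of 35 Sm, LSm and other proteins of small nuclear ribonucleoproteins 13 rose and 0 fell (median 0.20), among them *Snrpg* (0.51) and *Lsm3* (0.49) of the rings that hold spliceosomal RNA. Factors that act on the ribosome were mixed, with 4.88% higher and 9.76% lower, next to 7.19% and 4.59% of all genes. Of 41 translation factors 2 rose, *Eef1b2* (0.31) and *Eef1d* (0.26) of elongation, and 4 fell, among them *Eif5* (-0.40) and *Eif4g2* (-0.36) of initiation, with a median of -0.05. Other probes of *Eef1d* had 0.01 and 0.10, a second probe of *Eif5* fell as well and the last had 0.15, and a second probe of *Eif4g2* had 0.09. Ribosomal protein genes have many processed copies in the genome, which probes may not tell apart.

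Without KO replicate 3, 10 cytosolic and 14 mitochondrial ribosomal proteins rose, without WT replicate 4 these were 9 and 13, and without WT replicate 2 the cytosolic count was 17. For the proteins of ribonucleoproteins the counts were 5 without KO replicate 3, 7 without WT replicate 3 and 4 without WT replicate 4.

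Lists of protein turnover and transcription were mixed, next to 7.19% higher and 4.59% lower of all genes. Of 40 proteasome genes 7 rose, among them *Pomp* (0.35), the maturation factor, and *Psmg3* (0.35), an assembly chaperone, and 1 fell, *Psmd5* (-0.39), a chaperone of the regulatory particle, with a median of 0.12. Of 35 ubiquitin and NEDD8 genes *Nedd8* (0.42) and *Ubl5* (0.39), which are small modifiers, rose, and 4 fell, led by the ligase scaffold *Cul1* (-0.38) and *Eloc* (-0.29). RNA polymerase II and Mediator had 5 higher and 1 lower of 34, with small subunits such as *Polr2i* (0.41) and *Med31* (0.38) higher and the large *Med13l* (-0.34) lower. Heat shock proteins and chaperones had 4 higher, among them *Cryab* (0.58), and 2 lower, *Hspa4* (-0.44) and *Dnajb6* (-0.38), of 45, and a second probe of *Dnajb6* had 0.03. Without WT replicate 4, 0 proteasome and 0 polymerase and Mediator genes rose, and without KO replicate 3 or WT replicate 3 these were 1 and 0. Without KO replicate 4 or WT replicate 1 the proteasome count was 4, and without KO replicate 1 or WT replicate 2 the polymerase and Mediator count was 3, and it was 11 without KO replicate 2.

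Antioxidant enzymes and metallothioneins were a further group in which many genes rose and 0 fell. Of 52 tested 21 rose (40.4%, against 7.19% of all genes), with a median of 0.19. The mean level of the 52 was 10.22, 10.22, 10.36 and 10.26 in KO arrays, against 10.10, 10.07, 10.06 and 10.01 in WT arrays, with no overlap. Beside *Gpx8* the genes that rose included *Gstm2* (0.53), a glutathione transferase whose other probes had 0.39 and 0.30 and did not pass, the superoxide dismutases *Sod1* (0.48), *Sod3* (0.37) and *Sod2* (0.31), the peroxidases *Gpx4* (0.38) and *Gpx1* (0.32) and *Mt3* (0.37), the metallothionein of neurons. Without KO replicate 3 the count was 8, and without WT replicate 4 it was 7.

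Of 18 genes tested in a list of histones 4 rose (22.2%, against 7.19% of all genes) and 0 fell (median 0.22). Within the list the linker histone *H1f2* (0.52) and *H2bc4* (0.47) rose most. The list did not hold *H2bc9* and *H2bc11*, described above, or *H2bc7*, which were all over 1.5-fold higher, so its counts leave them out. Of 65 remodellers and modifiers 3 rose and 7 fell (median -0.05), next to 4.59% lower of all genes. Those that rose were the DNA methyltransferase *Dnmt1* (0.36), the H3K9 methyltransferase *Ehmt1* (0.39) and *Kdm6b* (0.31), a demethylase of H3K27. Those that fell included the other H3K27 demethylase *Kdm6a* (-0.35, by both probes), *Arid4b* (-0.37) of a deacetylase complex, and *Ezh2* (-0.33), *Ezh1* (-0.27) and *Suz12* (-0.23), all subunits of the Polycomb complex that methylates H3K27. A second probe of *Ehmt1* had 0.03. The count of higher histone genes was 0 without WT replicate 4 and 2 without KO replicate 3, and with the length correction 1 was higher and 1 lower (median 0.07). Of the modifiers 2 fell without KO replicate 3 or WT replicate 1 or 4, and 4 without KO replicate 4.

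Of 48 genes of synaptic vesicles and release 8 fell (16.7%, against 4.59% of all genes) and 0 rose (median -0.06). *Syn2*, a synapsin that holds vesicles in reserve, had 12.86, 13.19, 12.83 and 12.78 in KO arrays, against 13.52, 13.40, 13.39 and 13.32 in WT arrays (difference -0.49, adjusted p = 0.00825 from limma). The active zone scaffold *Rims1* had -0.49 with its brightest probe and -0.08 with another, and *Erc2* (-0.35), the calcium sensor *Syt1* (-0.34) and *Sh3gl2* (-0.33), which acts in vesicle endocytosis, fell as well. Of 35 Rab GTPases 3 fell and 0 rose, *Rab5a* (-0.52, with -0.26 by a second probe that did not pass) of early endosomes, *Rab6a* (-0.33, with -0.03 and -0.18 by other probes) of the Golgi and *Rab12* (-0.29). The vesicle count was 3 to 5 when any one of KO replicates 1, 3 and 4 or of WT replicates 1, 3 and 4 was left out.

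Receptors and channels outside the genes that the study had measured by qRT-PCR held few changes. Over all genes 7.19% were higher and 4.59% lower. Of 32 genes of AMPA, kainate and NMDA receptors and their scaffolds 2 rose and 1 fell (median 0.00). *Neto1*, an auxiliary subunit of kainate receptors, fell by 0.37, and by 0.46 with a second probe, *Nptx2*, a pentraxin that clusters AMPA receptors, rose by 0.42, and *Dlgap4*, a postsynaptic scaffold, rose by 0.27 with 1 probe while its others had -0.21 and -0.20. Of 12 GABA receptor and synthesis genes, 4 metabotropic glutamate receptor and Homer genes and 39 potassium channel genes, 1 passed, *Kcnc1* (-0.25). The plasma membrane calcium pump *Atp2b1* (-0.48) was the 1 of 20 sodium and calcium transport genes that fell. Of 47 genes of calcium-dependent kinases and phosphatases, with a median of -0.12, *Ppp1cb*, a catalytic subunit of phosphatase 1, fell by 0.41 and *Ppp1r1b*, the phosphatase inhibitor DARPP-32, rose by 0.46 with 2 probes and had 0.14 with the other. Of 31 genes that the study had chosen for qRT-PCR, in part from these arrays, 6 were higher and 17 lower (median -0.34), and that choice makes their direction no independent evidence. By qRT-PCR of hippocampus, from the same mice and others, the study reported a significant decrease for *Ide* alone.

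Adhesion molecules and the cytoskeleton of neurons held changes in both directions, next to 7.19% higher and 4.59% lower of all genes. Of 63 adhesion and guidance genes 6 fell, led by the protocadherin *Pcdh9* (-0.46) and the cadherin *Cdh8* (-0.40, with -0.38 and -0.20 by its other probes), and 1 rose, the netrin receptor *Unc5c* (0.41). Among 46 genes of microtubules and their motors the dendritic *Map2* (-0.39, with -0.20 and -0.22 by other probes that did not pass) and *Tuba4a* (-0.33) fell with 3 others, and 4 small subunits of dynein and dynactin rose, such as *Dynlrb1* (0.35) and *Dctn3* (0.35). Among 44 actin genes *Tmsb10* (0.57), a thymosin that binds free actin, and *Gap43* (0.28) of growth cones rose, and *Tpm3* (-0.34), *Wasl* (-0.33) and 2 others fell. Without KO replicate 3, 1 adhesion, 2 microtubule and 1 actin gene fell, and without WT replicate 4 these were 2, 1 and 1, while without KO replicate 2, 9 microtubule and 8 actin genes fell.

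Activity-regulated genes and growth factors moved in both directions, next to 7.19% higher and 4.59% lower of all genes. Of 29 activity-regulated genes 4 rose, among them *Gadd45g* (0.46, and 0.50 by a second probe) and *Nptx2*, and 3 fell, among them *Rgs4* (-0.33), a brake on G protein signalling, and the nuclear receptor *Nr4a3*, whose probe was detected in 0 of 4 KO and 3 of 4 WT arrays and so entered the test through WT. With the KO arrays set at the lowest detected signal it was at least 1.05-fold lower, and the adjusted p of 0.0143 from limma belongs to the measured values (-0.29), which lie below background in KO. *Bdnf* had a difference of -0.01 (adjusted p = 0.942). Of 39 neurotrophins and growth factor receptors and binding proteins 5 rose and 4 fell, with *Igfbp2* (1.12) and *Igf2* (0.79) at the top and *Fgfbp3* and *Nrg3* (-0.33), a ligand of the ErbB4 receptor, among the lower. Of 28 autophagy genes *Map1lc3a*, which encodes the LC3 protein of autophagosomes, rose by 0.53 (0.31, not passing, with a second probe), and *Atg12* (-0.25) fell.

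**Figure D3:**
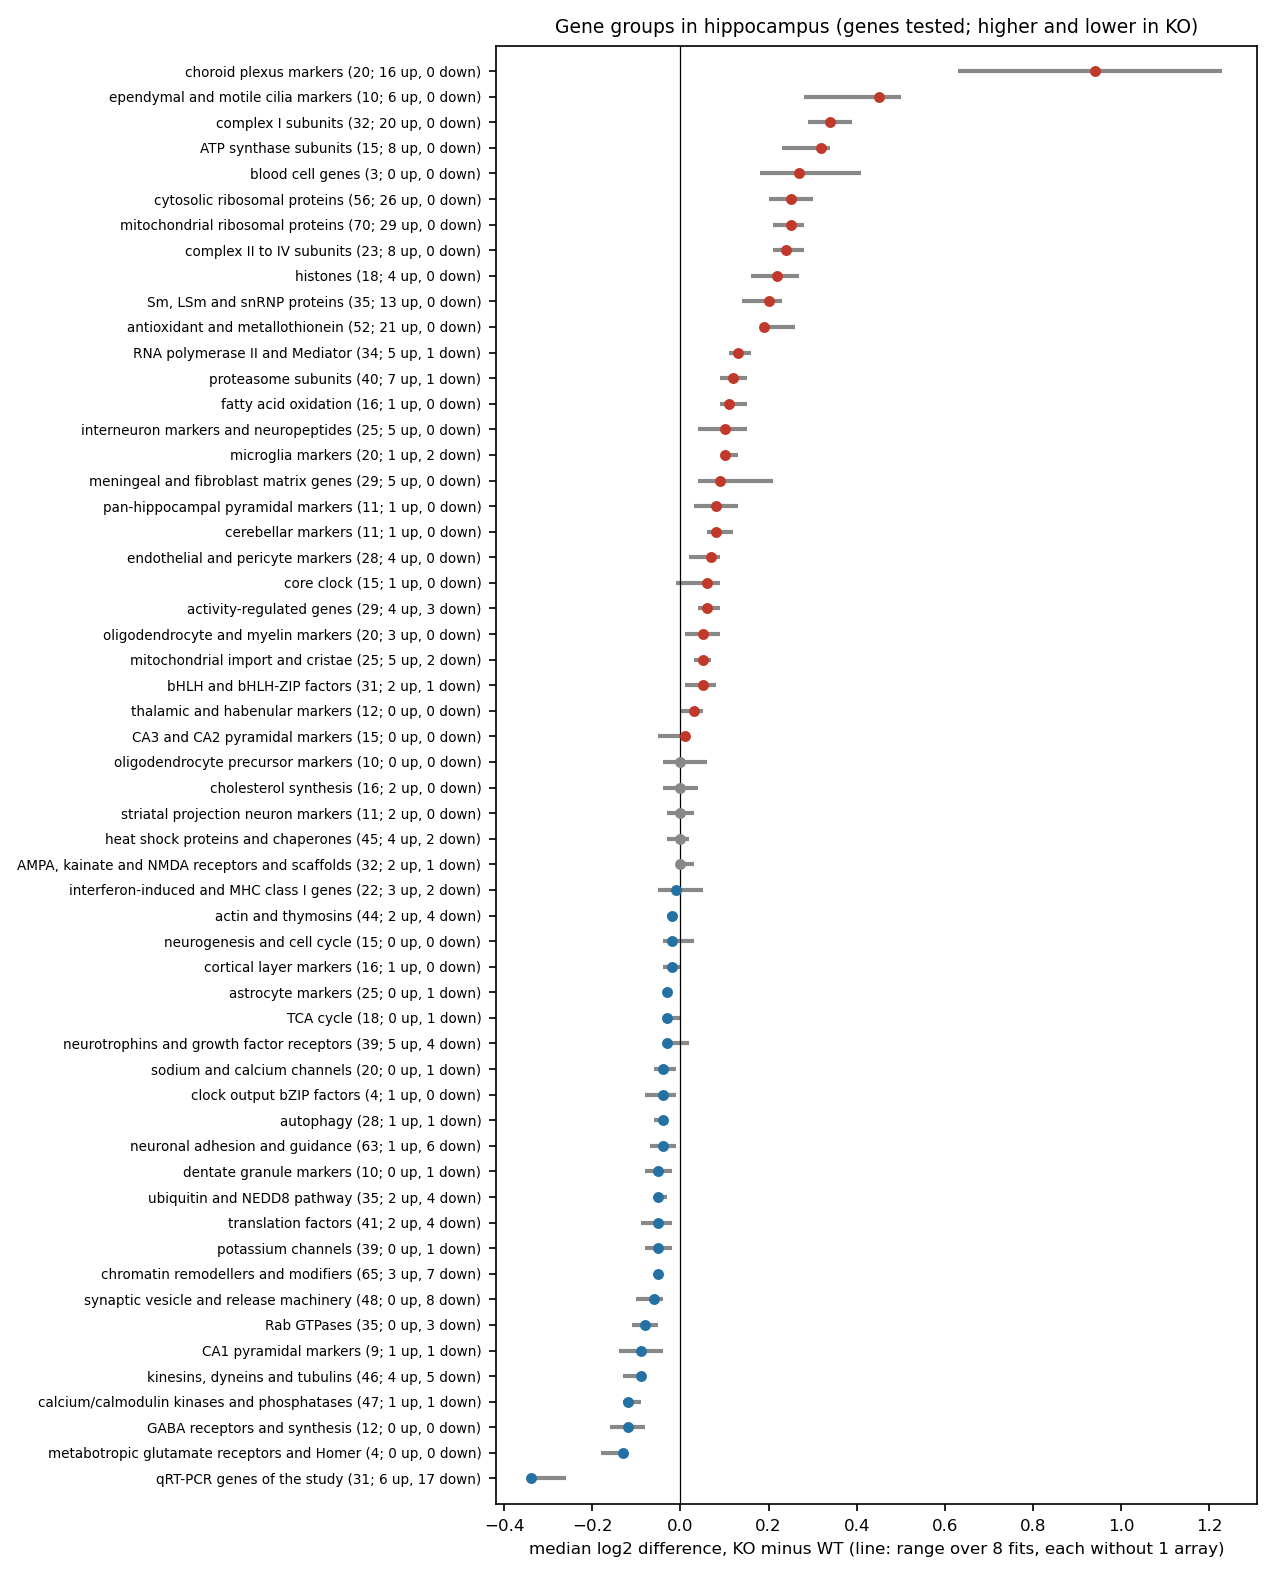
Median log2 difference, KO minus WT hippocampus, of the tested genes of each of 56 lists (points, red above 0, blue below 0 and grey at 0), with the range of that median when each of the 8 arrays was left out in turn (grey lines); the labels give the number of genes tested and how many were higher and lower in KO. Choroid plexus markers stand highest with a median of 0.94, followed by ependymal markers at 0.45 and complex I at 0.34, and most neuronal lists lie between -0.13 and 0.10.

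Markers of the neurons of the hippocampus held few changes, next to 7.19% higher and 4.59% lower of all genes. Of 9 CA1 markers *Spink8* (0.40) rose and *Man1a* (-0.40) fell, of 15 CA3 and CA2 markers 0 passed, of 10 dentate markers *C1ql3* (-0.46), a secreted synaptic organiser, fell, and of 11 markers of all pyramidal neurons *Nrgn* (0.42), the calmodulin store neurogranin, rose. The difference of *Prox1*, which marks granule cells, was -0.31 (adjusted p = 0.0803). Interneuron markers and neuropeptides had 5 of 25 higher, next to 7.19% of all genes, and 0 lower (median 0.10), namely *Cort* (0.45), *Vgf* (0.40), *Sst* (0.37), *Npy* (0.36) and *Pvalb* (0.29). The count was 0 without WT replicate 4, 2 without KO replicate 3 and 3 without KO replicate 4 or WT replicate 2. In tissue RNA, fewer or more cells of a type and less or more RNA per cell cannot be told apart.

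Among glial and vascular cells, next to 7.19% higher and 4.59% lower of all genes, the astrocyte list had 1 lower of 25. This was *Fgfr3* (-0.33, with -0.17 by a second probe), and the median of the list was -0.03. Oligodendrocyte markers had 3 of 20 higher, led by *Cryab* and *Opalin* (0.45), and precursor markers and neurogenesis genes had 0 of 10 and 0 of 15 that passed. The microglia list was split. The fractalkine receptor *Cx3cr1* (-0.33) and *Laptm5* (-0.31) fell, *Aif1* (0.30, with 0.03 by a second probe) rose, and the median of its 20 genes was 0.10. Endothelial and pericyte markers had 4 of 28 higher, among them *Ramp2* (0.47), the adrenomedullin co-receptor of endothelium, with 11.13, 11.08, 11.15 and 11.13 in KO arrays, against 10.75, 10.69, 10.59 and 10.60 in WT arrays. Its groups were the tightest of those named here and did not overlap (standard error 0.07, adjusted p = 0.00253 from limma).

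Choroid plexus markers had the highest median of the 56 lists. Of 20 choroid plexus markers tested 16 were higher (80%, against 7.19% of all genes) and 0 lower, with a median of 0.94 and all 20 above 0. *Ttr*, which encodes the thyroid hormone carrier transthyretin, had 15.15, 15.27, 15.35 and 14.52 in KO arrays, against 13.67, 9.66, 15.37 and 11.52 in WT arrays. The WT arrays were spread over a far wider range than the KO arrays, and WT replicate 3 was the highest of all (difference 2.52, standard error 0.75, adjusted p = 0.0381 from limma). *Clic6*, an intracellular chloride channel protein, had 11.04, 10.78, 12.16 and 9.92 in KO arrays, against 9.25, 7.76, 10.55 and 7.92 in WT arrays (difference 2.10, adjusted p = 0.0131 from limma). The mean level of the 20 markers was 9.48, 9.32, 10.35 and 8.84 in KO arrays, against 8.44, 7.90, 9.22 and 7.99 in WT arrays, so that WT replicate 3 lay above KO replicate 4, and their summed signal was 31838 to 68965 in KO and 5678 to 53344 in WT arrays.

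Of 10 ependymal and motile cilia markers 6 rose (60%, against 7.19% of all genes), among them *Dynlrb2* and *Mia* (0.51), and 0 fell (median 0.45). The mean level of the 10 markers was 8.80, 8.72, 9.25 and 8.82 in KO arrays, against 8.63, 8.47, 8.60 and 8.42 in WT arrays. Of 29 meningeal and fibroblast matrix genes 5 rose (17.2%) and 0 fell (median 0.09), led by *Igfbp2* and *Slc13a4* (0.82), a sulfate transporter. Blood cell genes passed in 0 of 3. Markers of the striatum (2 higher of 11, *Ppp1r1b* and *Syndig1l*, 0.30), the thalamus (0 of 12), the cortex (*Sulf1*, 0.90, of 16) and the cerebellum (*Pvalb* of 11) held few changes. The count of choroid plexus genes was 3 without WT replicate 4, 6 without WT replicate 2, 7 without KO replicate 3, and 9 without KO replicate 1 or WT replicate 1. The ependymal count was 0 without WT replicate 4, 1 without KO replicate 3, 2 without WT replicate 2, and 3 without WT replicate 1 or 3, and the meningeal count was 1 without WT replicate 4 and 3 without KO replicate 3.

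**Figure D4:**
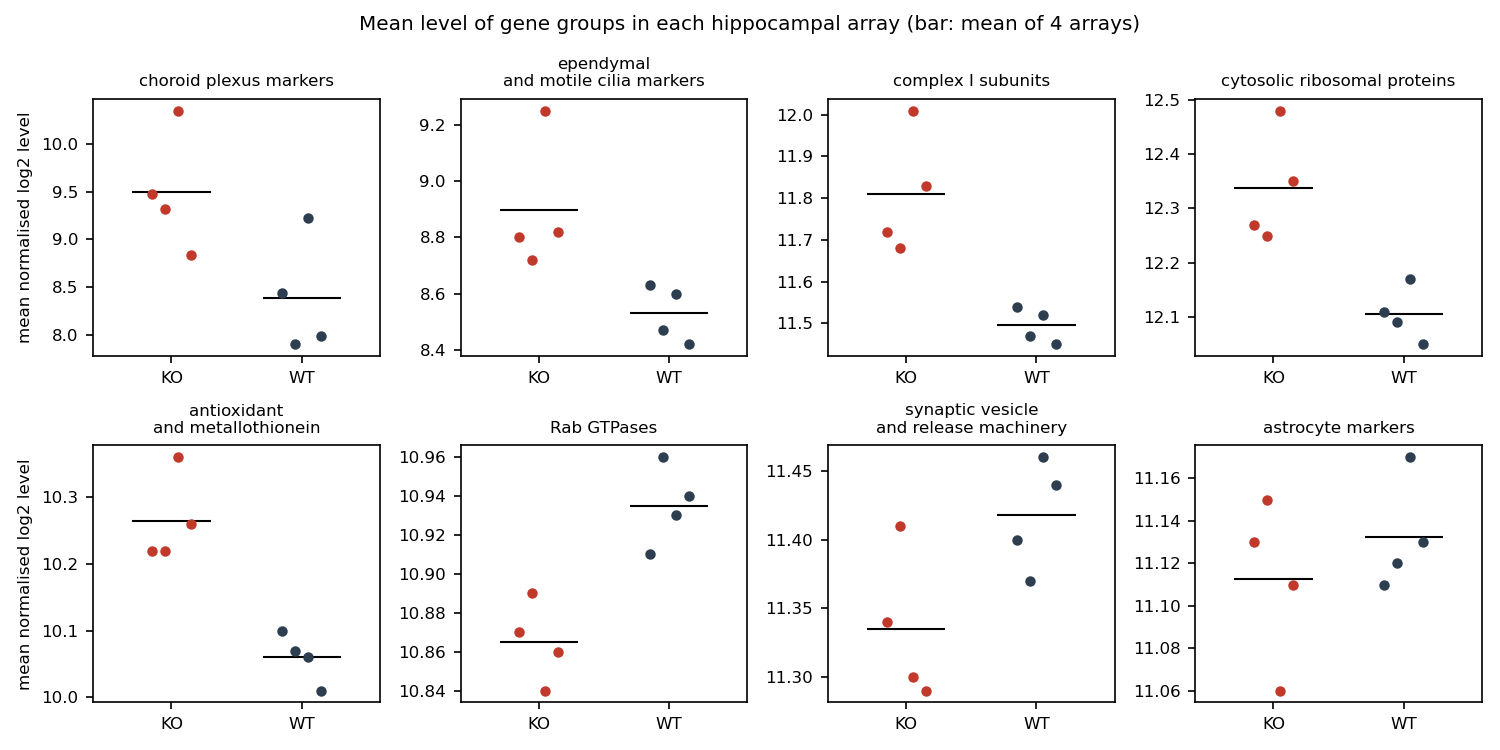
Mean normalised log2 level of 8 gene groups (vertical axes, each with its own scale) in each hippocampal array, with KO arrays on the left in red, WT arrays on the right in dark blue, and a bar at the mean of the 4 arrays. Complex I subunits, cytosolic ribosomal proteins, antioxidant genes, ependymal markers and Rab GTPases do not overlap between genotypes, choroid plexus markers overlap through WT replicate 3, and vesicle genes and astrocyte markers overlap.

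Because the level of choroid plexus markers moved with genotype, the comparison was also fitted with that level as a covariate. In this limma fit 6 higher and 7 lower genes had an adjusted p under 0.05, all of them among the 1158 genes, and 1144 of the 1158 kept their sign. The 6 were *A2ml1*, *Chl1*, *Cxcl12* (by its brightest probe), *Stmn1*, *Arsj* and *Ddhd1*, and the 7 were *Bhlhe40*, *Ide*, *Erdr1*, *Gbp2*, *Lcn2*, *Ifi47* and *Tigar*. *Arsj*, *Ddhd1*, *Ifi47* and *Tigar* are named because of this count, after their values were seen. *Arsj*, an arylsulfatase, had 0.62 without and 0.79 with the covariate, *Ddhd1*, a phospholipase, 0.45 and 0.70, *Ifi47*, an interferon-induced GTPase, -0.54 and -0.64, and *Tigar*, a phosphatase that restrains glycolysis, -0.49 and -0.57. *Gbp2* was at -1.47 without and -2.05 with the covariate, *Erdr1* at -1.87 and -2.09, and *Lcn2* at -0.76 and -1.04.

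Of the other large increases, *Kcne2* had 0.29 with the covariate, *Msx1* 0.22, *Cd59a* 0.22, *Trpv4* 0.19, *Gpx8* 0.11, *Slc16a8* 0.08, *Defb11* 0.08, *Calml4* 0.05 and *Hemk1* 0.01, none of which passed. *Kcne2* and *Calml4* are members of the choroid plexus list whose mean is the covariate, so part of their shift is built in. Those of *H2bc9* (0.44), *Tmem254a* (0.65) and *Zeb2* (-0.66) moved less and did not pass either. The median of complex I was 0.22 with the covariate, those of cytosolic and mitochondrial ribosomal proteins 0.15 and 0.21, and that of the antioxidant genes 0.11, with 0 genes passing in each. The covariate differs between the genotypes itself, and the part of these markers in the other differences was not tested.

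The direction of the differences went with gene length. Genes were split into 5 equal bins by their span in RefSeq. In the bin of the shortest genes, 0.107 to 7.57 kb, 17.5% were higher and 1.58% lower in KO hippocampus, and in that of the longest, 68.8 to 2271 kb, 1.98% were higher and 9.61% lower. The median log2 difference was 0.10, 0.05, -0.01, -0.04 and -0.06 from the shortest bin to the longest. Across 9830 genes, which are not independent, the Spearman correlation of the difference with length was -0.358, and that with the mean level was -0.114. The median length was 7.74 kb for complex I, 3.23 kb for cytosolic ribosomal proteins and 0.61 kb for histones, and 51.5 kb for chromatin regulators and 278 kb for adhesion genes. When the trend with length was taken out, 423 genes were higher and 352 lower, 12 of 32 complex I genes rose with a median of 0.26, and 7 of 56 cytosolic and 20 of 70 mitochondrial ribosomal proteins rose with medians of 0.13 and 0.15.

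**Figure D5:**
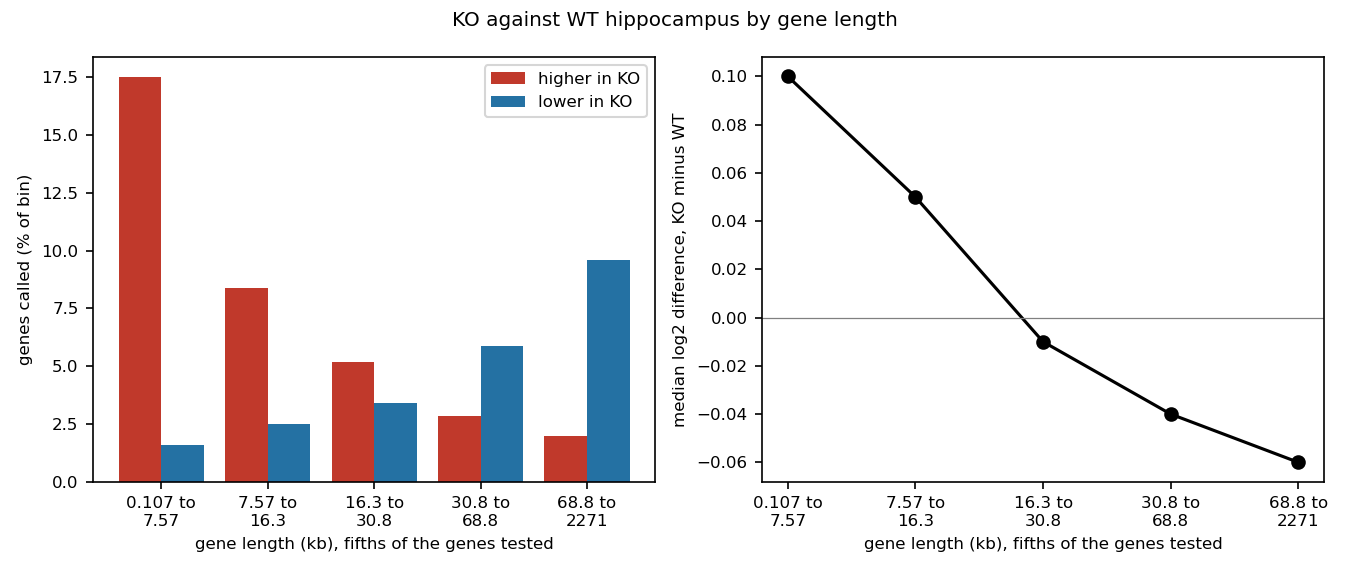
Left, percentage of the genes tested that were higher (red) and lower (blue) in KO hippocampus in each of 5 equal bins of gene length (horizontal axis, kb); right, median log2 difference, KO minus WT, of the same bins. The share of higher genes is 17.5% in the shortest bin and 1.98% in the longest, and the share of lower genes is 1.58% and 9.61%.

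The KO effect in hippocampus was set against that in the cortex and cerebellum of the same mice by interaction contrasts in limma, over 8941 genes tested in every tissue. The hippocampal effect lay above the cortical effect for 169 genes (1.89%) and below it for 153 (1.71%), and above the cerebellar effect for 55 (0.615%) and below it for 97 (1.08%). Of the genes that passed in hippocampus itself, 129 higher (1.44%) and 110 lower genes (1.23%) also passed in the contrast with the cortex. These counts go by the direction in hippocampus and not by that of the contrast, which for the higher gene *Chl1* was below 0 (-0.63). *Gbp2* had a hippocampal effect 1.37 below that of the cortex (-1.37, adjusted p = 0.0183 from limma), *Zeb2* 0.79 below (-0.79, adjusted p = 0.0353) and *Rapgef5* 0.75 below (-0.75, adjusted p = 0.0217), while *H2bc9* was 0.78 above (adjusted p = 0.0183), *Msx1* 1.10 above (adjusted p = 0.0217) and *Per1* 0.52 above (adjusted p = 0.0405). None of these genes passed in the contrast with the cerebellum. The KO effect in cerebellum was -0.72 for *Gbp2*, -0.50 for *Zeb2*, 0.84 for *H2bc9*, 1.03 for *Msx1* and 0.50 for *Per1*. Each of these had an adjusted p under 0.05 in limma, whereas *Rapgef5* had -0.06 (adjusted p = 0.708). The counts against the cortex were 0 in both directions in limma without WT replicate 4 (1906 genes then had an unadjusted p under 0.05), and they moved by over 1.5 times without WT replicate 2 or any KO replicate, to 434 and 310 without KO replicate 1.

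In both contrasts and in hippocampus itself 3 genes passed, *Chl1*, *Ndufa12* and *Mrpl22* (0.0336% of the genes), all of them higher in KO hippocampus. *Chl1*, a neuronal cell adhesion molecule on chromosome 6, had a KO effect of 1.06 in hippocampus, less than the 1.69 in cortex and 1.83 in cerebellum. *Ndufa12*, of complex I, had 0.40 in hippocampus, -0.20 in cortex (adjusted p = 0.439) and 1.05 in cerebellum, and *Mrpl22*, of the mitochondrial ribosome, 0.33, -0.17 (adjusted p = 0.520) and 0.87. The hippocampal effect of both thus lay between those of the other tissues. No gene passed downward in hippocampus and in both contrasts. The counts against the cerebellum moved by over 1.5 times when any one of KO replicates 1, 2 and 4 or of WT replicates 2, 3 and 4 was left out, and for the genes above also when WT replicate 1 was, to 2 above and 3 below without WT replicate 3.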

How the data were processed

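Total RNA was hybridized to Illumina MouseRef-8 v2 BeadChips, 1 array a sample. The authors extracted the bead intensity signal and the detection p-value of each probe in GenomeStudio 2011.1 and deposited both, without normalization between arrays. They also deposited a Z score per probe and array, against which the scores computed here from the signals differed by at most 9.96e-05. The log2 signal was Z normalised within each of the 23 arrays, multiplied by their mean SD (1.57) and set on the grand mean. Of the 25697 probes, 23978 had 1 gene symbol, updated through Entrez identifiers with RefSeq (GRCm38.p6), and 1719 had none and were left out. The probe with the highest mean signal stood for a gene, and a gene was tested when detected (p under 0.05) in at least 3 of 8 arrays.

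KO and WT were compared over the 8 hippocampal arrays in limma 3.58.1 (R 4.3.3) with a mean-variance trend, and p-values were Benjamini-Hochberg adjusted over all genes tested, with a threshold of 0.05. The KO effects of tissues were compared over 23 arrays with mouse as a random block (correlation 0.002). The methods of the study instead used a Z-ratio with an ANOVA filter. In data simulated for the hippocampal comparison, 87% of genes changed by 0.5 and 100% of those changed by 1 on the log2 scale were recovered over 9834 genes, and 0.145% of unchanged genes were called. The simulated noise was independent for each gene and array, without the variation that many genes of a real array share. These rates therefore do not carry over to the measured arrays. No depth exists for arrays, and the number of arrays limits the precision.

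Named genes were the 15 highest and 15 lowest past the threshold without overlap of the arrays, outside the qRT-PCR genes of the study, up to 2 in each direction per gene list, and those past both tissue contrasts. Further list members were chosen after their values were seen. The members and lists were chosen with earlier results of these data known. The alternatives were neqc, quantile normalization, the deposited scores, other filters, the mean of probes, a replicate block, 1 fit of all groups, an unmoderated test, a choroid plexus covariate, a correction for gene length, and leaving out each replicate.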

Additional observations from a re-analysis of the deposited data

Results flagged for a closer look

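In 6 of 280 groups of 4 arrays, 1 array stood far from the other arrays of its genotype, and chance flags about 1 in 20 groups. *Atp5g1* had 12.57 in WT replicate 3, against 12.32 to 12.36 in the other WT arrays. *Cox7c* had 12.50 in WT replicate 4 (others 12.61 to 12.63), *Ebp* 9.27 in WT replicate 4 (others 9.52 to 9.55), *Fgfr3* 10.37 in WT replicate 2 (others 10.12 to 10.15), *Rapgef5* 11.56 in WT replicate 1 (others 11.13 to 11.19) and *Man1a* 8.94 in KO replicate 1 (others 8.53 to 8.58).

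The KO effect differed between hippocampus and cortex for a number of named genes, by the interaction contrast in limma at an adjusted p under 0.05. Given as the hippocampal minus the cortical effect on the log2 scale, the genes that passed above 0 included *Clic6* at 1.89, *Igfbp2* at 1.33, *Msx1* at 1.10, *Cd59a* at 0.97, *Dynlrb2* at 0.66 and *Pltp* at 0.59. So did *Gstm2* and *Cryab* (both 0.74), *H2bc9* (0.78), *Tmem254a* (0.68), *Map1lc3a* (0.67), *Lsm3* and *Mrps21* (both 0.64), *Id1* and *Ndufa12* (both 0.59), *Per1* (0.52), and *Ebp* and *Mrpl22* (both 0.50). Those that passed below 0 included *Cacna2d1* at -0.93, *Map2* at -0.71, *Pcdh9* at -0.67, *C1ql3* at -0.65, *Chl1* at -0.63, and *Rims1* and *Syn2* at -0.60. Also below were *Gbp2* (-1.37), *Zeb2* (-0.79), *Rapgef5* (-0.75), 6430548M08Rik (-0.70), *Cul1* (-0.65), *Tomm70a* (-0.63), *Thsd4* (-0.62), *Kdm6a* (-0.59), *Man1a* (-0.56), *Hspa4* (-0.52), *Eif5* (-0.51), *Gbp3* (-0.47) and *Pdha1* (-0.42).

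Against the cerebellum, the hippocampal minus the cerebellar effect was 1.30 for *Sulf1* and 0.53 for *Kcnc1*. It was -1.01 for *Tmsb10*, -0.83 for *Vgf*, -0.77 for *Chl1*, -0.70 for *Rps27l*, -0.66 for *Tomm6*, -0.65 for *Ndufa12*, -0.61 for *H2bc4* and -0.54 for *Mrpl22*, all at an adjusted p under 0.05 in limma.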

How the results depend on the processing

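Higher and lower genes numbered 6 and 9 with the unmoderated test (1335 and 1090 at an unadjusted p under 0.05) and 6 and 7 with the choroid plexus covariate (855 and 566), against 707 and 451 as reported (1552 and 1245). The gene length correction left 423 higher genes. Leaving out 1 array gave 206 to 803 higher and 137 to 505 lower genes, with the lowest counts without WT replicate 4 and the next without KO replicate 3. The effect in hippocampus was below that in cortex for 269 genes after quantile normalization. Leaving out 1 mouse gave 0 to 434 genes above and 0 to 310 below the cortical effect, and 2 to 85 above and 3 to 138 below the cerebellar effect. The share of changed genes that were higher was 61.1% as reported, 56.2% with neqc, 56.4% after quantile normalization, 46.2% with the covariate and 40% with the unmoderated test. Of the 1158 genes, all kept their sign under the other settings, except 1 with the mean of probes and 14 with the covariate, and 99 were not tested when detection in every array was required. Among the named genes, *Dlgap4* turned to -0.05 with the mean of probes and *Sulf1* to -0.07 with the covariate, and *A2ml1*, *Bhlhe40* and *Ide* were the 3 of 140 that passed under every alternative run. The replicate block gave 790 higher and 468 lower genes and same-numbered arrays correlated at 0.03, -0.14, 0.30 and 0.08, so the numbers were not taken as pairs. The cause of these shifts was not tested. Probes near background and 4 arrays a genotype limit what small differences can show.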
